A study of Mus musculus with 14 samples.

Results

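The 75 genes described here encode proteins of the cytosolic ribosome, 45 of the large subunit and 30 of the small subunit, and were measured by mRNA sequencing in 14 libraries of the mouse line TR.1, which was derived from a lung adenocarcinoma and carries a Trim24-RET fusion. They were taken from the 55415 gene rows of the deposited tables by symbol (Rpl or Rps and a number, with an optional a, x or y, plus Rplp0, Rplp1, Rplp2 and Rpsa) and by a mean of at least 5 CPM, counts scaled to the depth of each library, over all 14 libraries. Symbols ending in -ps, which mark pseudogene copies, were dropped. The symbol rule found 76 genes, and the mean level left out 1 of them, Rpl24, at 0.38 CPM. The lowest genes inside the limit were Rps10 at 5.72 CPM and Rpl13a at 60.0 CPM. Rps3a1, at 939.7 CPM, and the fusion gene Fau and the scaffold gene Rack1 do not match the symbol rule and are given separately. All 75 genes passed the filter on low counts in both tables, and each lies at 1 position of the mm10 annotation, over 19 chromosomes in all.

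All libraries come from this single line, so every group, controls included, carries the fusion. In the acute experiment, cells were kept for 1, 2, 3 or 5 days in 0.1% DMSO or in 100 nM selpercatinib, an inhibitor of the RET kinase, with 1 library per arm and day. In the resistance experiment, cultures were grown for about 60 days while selpercatinib or pralsetinib, a second RET inhibitor, was raised from 30 nM. The 2 selpercatinib-resistant libraries are labelled 500 nM. The 2 pralsetinib-resistant libraries are labelled 200 nM and 400 nM, whereas the protocol gives 400 to 500 nM as the final level. The 2 parental libraries are passage controls in 0.1% DMSO. The labels do not say whether libraries of a group came from separate cultures, so p-values measure the spread between these libraries. The day is also the labelled batch in the acute experiment, so time in culture and batch cannot be told apart there. In the resistance experiment the same label separates parental from resistant libraries, so batch and resistance cannot be told apart either.

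Library totals ran from 60723746 to 89827989 counts. Of the 7 epithelial marker genes, all were detected in the acute and parental libraries, with a summed level of 5682 to 7449 CPM in acute DMSO and 7904 to 7994 CPM in parental cells. The lung surfactant genes Sftpa1, Sftpb and Sftpc stayed under 1 CPM in every library, as did Hopx. The lung epithelial transcription factor Nkx2-1 was at 2.88 to 6.62 CPM in the acute libraries, and the alveolar type 1 marker Ager at 0.904 to 1.97 CPM with DMSO and 1.08 to 14.1 CPM with selpercatinib; both were called higher acutely. Of the immune markers, Ptprc, Cd3e and Lyz2 were under 1 CPM in every library, whereas the macrophage-associated genes Cd68 and Csf1r were detected. Cd68 was at 4.13 to 18.9 CPM with acute DMSO and 3.96 to 7.20 CPM with selpercatinib, where it was called lower, and Csf1r at 0.620 to 0.853 CPM and 7.60 to 12.5 CPM, where it was called higher. The part of these genes in the results below was not tested.

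Cytosolic ribosomal proteins assemble with ribosomal RNA in the nucleolus into a large and a small subunit, and most proteins of a subunit are needed in equal numbers. Their mRNAs are among the most abundant of a growing cell. Many of these mRNAs start with a C followed by an uninterrupted run of pyrimidines, the 5′ terminal oligopyrimidine (TOP) tract, through which the mTORC1 kinase and the RNA-binding protein Larp1 set their translation and stability. Receptor tyrosine kinases such as RET signal to mTORC1 and to Myc, a transcription factor that promotes ribosome synthesis.

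The start regions of 9 genes are printed because they span the size of the acute response, from Rpl12, which fell most, to Rps2, which fell least. Each line runs 5′ to 3′ on the coding strand from 25 bases before the start annotated by RefSeq to the 15 bases from that start on, in GRCm38.p6. Capitals mark a run of at least 5 pyrimidines that begins with C near the start. The annotated start need not be the one these cells use.
Rpl12 (chr2:32961687-32961726, plus strand): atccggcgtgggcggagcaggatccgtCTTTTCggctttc
Rps18 (chr17:33955651-33955690, minus strand): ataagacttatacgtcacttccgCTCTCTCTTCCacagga
Rps9 (chr7:3704016-3704055, plus strand): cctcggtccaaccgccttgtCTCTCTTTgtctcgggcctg
Rps6 (chr4:86857353-86857392, minus strand): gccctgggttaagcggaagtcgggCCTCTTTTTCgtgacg
Rps27 (chr3:90213634-90213673, minus strand): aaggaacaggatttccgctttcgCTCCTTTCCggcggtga
Rpl41 (chr10:128549154-128549193, minus strand): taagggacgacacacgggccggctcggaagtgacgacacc
Rps28 (chr17:33824548-33824587, minus strand): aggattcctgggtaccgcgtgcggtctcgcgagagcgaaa
Rplp0 (chr5:115559442-115559481, plus strand): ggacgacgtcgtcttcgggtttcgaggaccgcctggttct
Rps2 (chr17:24720038-24720077, plus strand): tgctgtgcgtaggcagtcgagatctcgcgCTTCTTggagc

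The first 5 of these windows and Rps2 hold such a run, and Rpl41, Rps28 and Rplp0 do not. Windows not printed include others that differ from this order. Rpl5 (acute log2 change −0.81) holds no such run, and Rpl19 (−0.58) and Rpl38 (−0.60) hold one. In Rpl13a (−0.91) a run begins just after the start and reaches the end of the window. RefSeq promoter entries matched 55 of the 75 genes. A C followed by at least 4 pyrimidines, with the C within 5 bases of an annotated start on the coding strand, was found in 27 of these 55 (49.1%) and in 21.2% of all 27025 genes with an entry. The letters CCGGAA, the core of ETS-family binding motifs, stood on either strand of the window from 250 bases before to 50 bases after the start in 31 of the 55 (56.4%) and in 16.7% of all genes. The median acute log2 change was −0.71 for the 27 genes with a tract at the start and −0.70 for the 28 without, so the medians of these subsets lay within the 0.12 log2 standard deviation among the genes given below. In selpercatinib-resistant against parental cells the medians were −0.46 with a tract and −0.56 without.

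Per length, the genes differed widely in level. RPKM values, which are CPM divided by the merged exon length in kilobases, averaged over the 14 libraries, had a median of 568.1, with quartiles of 322.5 and 852.1. Rplp1 (2819.3 RPKM) and Rplp0 (1934.7 RPKM), which belong to the stalk that recruits elongation factors, stood at the top, followed by Rps12 at 1646.5 and Rps2 at 1601.4. Rps10 was lowest at 4.7 RPKM and Rpl13a next at 53.3. The low value of Rps10 is uncertain, since its copies Rps10-ps1 and Rps10-ps2 averaged 31.3 and 62.3 CPM, above the 5.72 CPM of the gene itself. Over all genes the -ps rows held 3.19 to 3.49 counts per 100 counts of the 75 genes.

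The share of all counts taken by the 75 genes was the broadest measure of the response. With DMSO it was 4.58% at day 1 (95% Wilson interval 4.577 to 4.586%, counting error only), 5.12% at day 2, 6.34% at day 3 and 7.09% at day 5. With selpercatinib it was 3.56%, 3.55%, 3.30% and 3.38% on the same days. All treated libraries lay below all DMSO libraries, and the DMSO values climbed from day to day while the treated values stayed between 3.30 and 3.56%. In parental cells the share was 5.95% and 6.39%, against 4.71% and 4.76% in selpercatinib-resistant and 5.07% and 4.94% in pralsetinib-resistant cells.

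**Figure D1:**
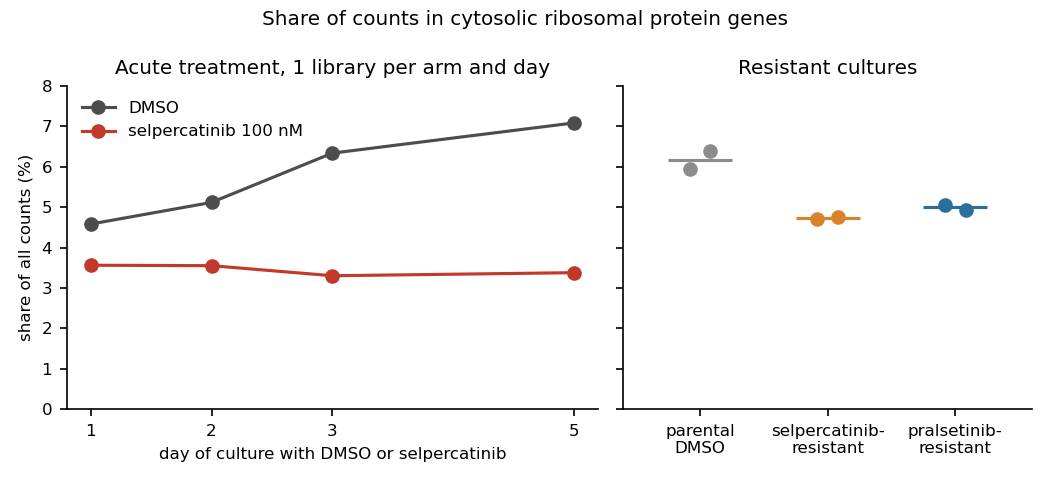
Share of all counts in the 75 cytosolic ribosomal protein genes, in percent, by day in the acute experiment (left, 1 point per library) and by group in the resistance experiment (right, points are libraries and lines are means of 2). The DMSO arm runs from 4.58 to 7.09% and the selpercatinib arm from 3.30 to 3.56%, and both resistant groups lie below the parental libraries.

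Every one of the 75 genes fell under acute selpercatinib. With edgeR's quasi-likelihood test, day as a block and adjustment over all 13209 genes tested, 75 of 75 had an adjusted p under 0.05 and a lower level, against 26.9% of all genes called lower and 53.5% called in either direction. The median log2 change was −0.70, a 1.63-fold fall, beside −0.0019 for all genes tested. The spread among the genes was narrow: the standard deviation of their log2 changes was 0.12. The median standard error on each was 0.14. It takes in how the difference changed between days, so it is not a measure for the spread between genes. Large-subunit genes had a median of −0.69 and small-subunit genes a median of −0.72. The ratio of large-subunit to small-subunit counts was 1.51 to 1.55 in DMSO and 1.51 to 1.54 with selpercatinib. These are bulk libraries scaled to their own totals, in which fewer cells of a type and less RNA per cell cannot be told apart.

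**Figure D2:**
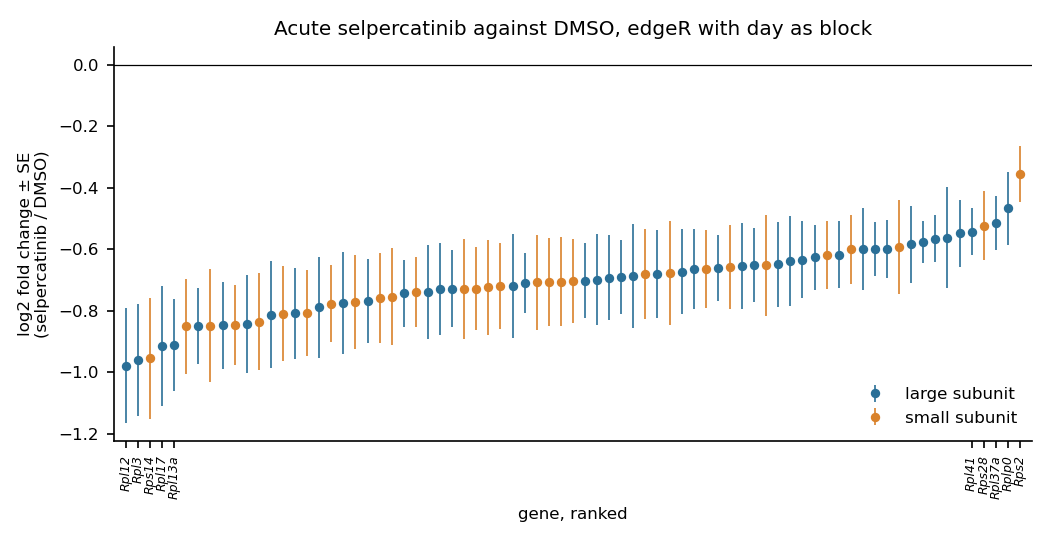
Log2 fold change of each gene, selpercatinib over DMSO, ranked from the largest fall (Rpl12, −0.98) to the smallest (Rps2, −0.36), with bars of 1 standard error from edgeR on 8 libraries. Large-subunit and small-subunit genes are interleaved along the whole range, and no point reaches 0. The 5 genes at each end are named.

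Among the largest falls, Rpl12, a protein at the base of the stalk, stood at 1038, 1144, 1472 and 1764 CPM with DMSO on days 1, 2, 3 and 5, and at 733, 734, 635 and 598 CPM with selpercatinib. The groups did not overlap, and the log2 change was −0.98 ± 0.19 (SE, edgeR adjusted p 0.0049). Rpl3, which reaches towards the peptidyl transferase centre, fell by 0.96 ± 0.18 on the log2 scale. Rps14, on the platform of the small subunit, fell by 0.96 ± 0.20. Rpl17, at the exit tunnel, fell by 0.91 ± 0.20, and Rpl13a, known in human monocytes for a role in translational silencing outside the ribosome, fell by 0.91 ± 0.15.

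Among the stalk proteins, Rplp1 fell by 0.68 ± 0.14 and Rplp2 by 0.65 ± 0.14, whereas Rplp0, the scaffold on which they sit, had one of the smallest changes, −0.47 ± 0.12 (edgeR adjusted p 0.016). Rplp0 counts were 2768, 2903, 3289 and 3039 CPM with DMSO and 2376, 2293, 2079 and 1942 CPM with selpercatinib, and the groups did not overlap. Rpl5 and Rpl11, which with the 5S RNA form the particle that can bind Mdm2 and so act on p53, fell by 0.81 ± 0.17 and 0.60 ± 0.09. Their DMSO controls differed in time course: Rpl5 was at 823 CPM on day 1 and 1655 CPM on day 5, and Rpl11 at 659 and 629 CPM.

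Rps6, the substrate of the S6 kinases, fell by 0.84 ± 0.16, from 604, 667, 941 and 1058 CPM to 453, 457, 410 and 465 CPM. Rps27a, made as a fusion with ubiquitin, fell by 0.85 ± 0.13. Rps19, the gene most often mutated in human Diamond-Blackfan anaemia, fell by 0.73 ± 0.16, and Rps4x, an X-linked gene, by 0.70 ± 0.14. Rpsa, also known as the laminin receptor precursor, fell by 0.76 ± 0.15 and Rps3, at the mRNA entry site, by 0.68 ± 0.15. Rpl22, an RNA-binding protein of the large subunit, fell by 0.67 ± 0.14. Rpl41, one of the smallest eukaryotic proteins, fell by 0.54 ± 0.08.

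At the other end, Rps2, near the mRNA entry channel, was at 2315, 2324, 1834 and 1561 CPM with DMSO and at 1732, 1742, 1459 and 1306 CPM with selpercatinib. Its log2 change was −0.36 ± 0.09 (edgeR adjusted p 0.016), and the groups overlapped across days although each treated library lay below its DMSO partner. Rps28 changed by −0.52 ± 0.11. Rpl10, which joins late in the maturation of the large subunit, had the highest adjusted p of the 75, 0.026, at −0.56 ± 0.16. Besides Rps2, the groups overlapped across days in Rps27 and Rpl39. Such overlap was not counted over all genes. Without day 3 the number of genes called lower was 67 of 75, and without either day 3 library alone it was 68. Over all genes, 2588 were called lower without day 3, against 3559 with all libraries. The number was 2636 without the day 3 DMSO library and 2801 without the day 3 selpercatinib library. Rpl10, Rplp0 and Rps2 were among those whose call was lost in some of these fits, with adjusted p of up to 0.103 for Rpl10 and 0.0691 for Rplp0.

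Day by day, all 75 genes were lower with selpercatinib at each of the 4 days, a number not counted over all genes. The median log2 difference was −0.35 at day 1, −0.46 at day 2, −0.95 at day 3 and −1.05 at day 5. At day 1 the genes ran from −0.99 (Rps10) to −0.07 (Rpl10), and at day 5 from −1.56 (Rpl12) to −0.26 (Rps2). A fit of the difference against day called 3 genes as growing more negative, against 1.28% of all genes called in that direction and 2.06% in either. They were Rps14 (−0.30 ± 0.06 log2 per day), Rpl12 (−0.28 ± 0.05) and Rps27 (−0.26 ± 0.05), with edgeR adjusted p of 0.047, 0.046 and 0.042. The median slope over the 75 genes was −0.19 per day beside −0.0093 for all genes. Of the 75 slopes 73 were negative, against 7043 of all 13209. An unadjusted edgeR p under 0.05 was found for 66 of the 75, a number not counted over all genes. The 75 genes were measured in the same libraries, so these p-values are not independent. The count of 3 hung on the libraries used. It was 0 without day 1, 1 without day 2, 61 without day 3 and 15 without day 5, and 41 with DESeq2 on all days. Over all genes the same fits called 15, 219, 932, 697 and 558 lower.

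The widening ran alongside a change in the DMSO arm, where 60 of the 75 genes rose with day, against 18.0% of all genes called higher, and 2 fell, against 15.9% called lower. The median trend was 0.18 log2 per day, and from day 1 to day 5 the median difference was 0.68, from −0.57 for Rps2 to 1.34 for Rps14. Rps27, a zinc-finger protein of the small subunit, had the steepest rise (0.34 ± 0.03 per day, edgeR adjusted p 9.6e-04), at 184, 232, 333 and 464 CPM on days 1, 2, 3 and 5. Rps14 (0.33 ± 0.04), Rpl17 (0.32 ± 0.05) and Rpl39 (0.29 ± 0.04) followed. The genes that fell were Rps2 (−0.16 ± 0.04 per day) and Rpl41 (−0.09 ± 0.03). The number that rose was 0 without day 1, 1 without day 2, 66 without day 3 and 51 without day 5. Over all genes the number that rose was 16, 42, 3023 and 2811 in those fits, so calls over all genes were also few without day 1 or day 2. The 2 falls were called in neither of the fits without day 1 or day 2, nor without day 5.

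In the selpercatinib arm no gene of the 75 was called in either direction by edgeR, against 13.0% of all genes (5.18% higher and 7.78% lower). An unadjusted edgeR p under 0.05 was found for 9 of the 75, again not counted over all genes. DESeq2 called 5 as falling, and without day 3 the counts were 11 lower and 1 higher. Over all genes DESeq2 called 1618 falling, and the fit without day 3 called 2221 lower and 1808 higher. The median trend was −0.02 log2 per day and the day 5 to day 1 difference −0.03, with 34 genes up and 41 down. Rpsa had a value of −0.12 ± 0.04 per day (edgeR adjusted p 0.059) and Rps6 of 0.00 ± 0.04. The treated levels were below DMSO from day 1 on, and their median then moved little while the DMSO median climbed.

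**Figure D3:**
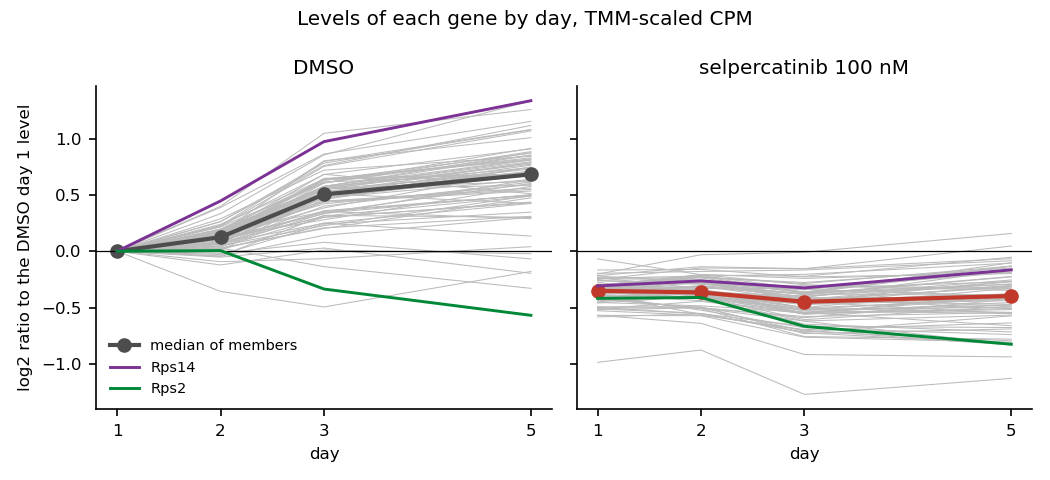
Level of each of the 75 genes by day, as log2 of TMM-scaled CPM relative to the same gene at day 1 of DMSO, with the median in bold, Rps14 in purple and Rps2 in green. In DMSO the median reaches 0.68 at day 5 while Rps2 reaches −0.57, and with selpercatinib the median is at −0.35 on day 1 and stays close to it.

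Cells that had grown resistant to selpercatinib had lower ribosomal protein mRNA than parental cells. From 1 fit of the 3 groups with edgeR, 69 of the 75 genes were called lower and 0 higher, against 34.4% and 35.2% of the 14389 genes tested, 69.6% in all. The median log2 change was −0.49, a 1.41-fold fall, beside −0.0005 for all genes. In pralsetinib-resistant cells 64 genes were called lower and 0 higher, against 34.6% and 35.8% of all genes, 70.3% in all, with a median of −0.46. Both comparisons use the same 2 parental libraries. Lower in both were 64 genes, lower in selpercatinib-resistant cells alone 5, and called in neither 6. These joint numbers were not counted over all genes, so they do not show whether the overlap is particular to these genes. With column totals in place of TMM scaling the median of all genes moved by 0.14 and 0.18, the counts became 60 and 52 lower with 0 and 3 higher, and the split of all calls went from 5062 higher and 4956 lower to 6148 and 3907 for selpercatinib, and from 5145 and 4973 to 6431 and 3799 for pralsetinib. Measured from the median of all genes, the 75 genes stayed at −0.49 and −0.46 under that scaling.

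The size of the change varied more among genes here than in the acute experiment, with a standard deviation over the 75 genes of 0.22 in selpercatinib-resistant and 0.24 in pralsetinib-resistant cells. Rpl13a fell most in selpercatinib-resistant cells, from 96.4 and 102.9 CPM in parental cells to 49.7 and 49.4 CPM, a log2 change of −1.01 ± 0.08 (edgeR adjusted p 1.6e-05). In pralsetinib-resistant cells it stood at 57.0 and 51.1 CPM (−0.88 ± 0.08). Rpl35a, mutated in some human patients with Diamond-Blackfan anaemia, had 308.7 and 351.3 CPM in the parental pair, 172.5 and 169.1 CPM under selpercatinib resistance and 173.2 and 163.3 CPM under pralsetinib resistance, with log2 changes of −0.95 ± 0.08 and −0.97 ± 0.08. The parental pair lay apart from all 4 resistant libraries for both genes.

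Rps7, which in human cells can bind MDM2, fell by 0.91 ± 0.08 in selpercatinib-resistant and by 0.97 ± 0.08 in pralsetinib-resistant cells. Rpl14 fell by 0.93 ± 0.07 and 0.80 ± 0.07, and Rpl3 by 0.78 ± 0.07 and 0.85 ± 0.07. The 5S partners again differed in size, with Rpl5 at −0.74 ± 0.07 and −0.91 ± 0.07 and Rpl11 at −0.47 ± 0.06 and −0.45 ± 0.06. The stalk genes Rplp0, Rplp1 and Rplp2 fell by 0.53, 0.58 and 0.49 in selpercatinib-resistant cells and by 0.50, 0.42 and 0.42 in pralsetinib-resistant cells. Rps6 fell less, by 0.36 ± 0.08 and 0.22 ± 0.08, and in pralsetinib-resistant cells its call was lost without the second parental library (adjusted p 0.205), without either selpercatinib-resistant library, without the 200 nM library and with column totals (edgeR adjusted p 0.621).

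The 6 genes called in neither resistant group were Rpl27, Rpl38, Rpl39, Rps2, Rps14 and Rps28. Rps14 was at 483 and 543 CPM in parental, 499 and 502 CPM in selpercatinib-resistant and 474 and 443 CPM in pralsetinib-resistant cells, with log2 differences of −0.04 (95% interval −0.18 to 0.11) and −0.16 (−0.31 to −0.02). This gene had the third-largest fall after acute selpercatinib. Rps28, at the mRNA exit site, was at 698 and 768 CPM in parental and 699 and 730 CPM in selpercatinib-resistant cells (−0.04, −0.17 to 0.09), and at 813 and 817 CPM in pralsetinib-resistant cells (0.15, 0.02 to 0.28). Rps2 differed by −0.13 (−0.25 to −0.01) and 0.10 (−0.03 to 0.22), Rpl27 by −0.11 and −0.01, Rpl38 by −0.20 and −0.13, and Rpl39 by −0.21 and −0.17, so that intervals for some of them include falls as large as those called in other genes.

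Rpl19, Rpl21, Rpl41, Rps10 and Rps21 were the 5 called in selpercatinib-resistant cells alone. Set directly against each other, the resistant groups differed in 3 of the 75 genes, all lower in selpercatinib-resistant cells, against 4.13% of all genes called lower and 6.46% called higher. They were Rpl41 (−0.34 ± 0.06), Rps12 (−0.30 ± 0.07) and Rps26 (−0.27 ± 0.06), with edgeR adjusted p of 0.017, 0.041 and 0.042. Rpl41 was at 729 and 735 CPM against 916 and 932 CPM, and parental cells had 949 and 1019 CPM. Of those 5 genes, Rpl41 was the single one called different between the resistant groups, which differ in labelled dose as well as drug. The 3 lower calls among 75 genes lie near the 4.13% of all genes called lower, so their number does not set these genes apart. The median over the 75 genes was −0.04. None of the 3 calls stood when either selpercatinib-resistant library was left out. Such a fit leaves 1 library in that group, and calls over all genes also became far fewer. The median over the 75 genes was then −0.03 without the first library and −0.05 without the second. Without the 200 nM pralsetinib library 9 were lower and 2 higher, and without the 400 nM library 8 were lower. Over all genes these fits called 1939 lower and 2504 higher, and 1742 lower. The ratio of large-subunit to small-subunit counts was 1.52 and 1.53 in selpercatinib-resistant and 1.47 and 1.43 in pralsetinib-resistant cells, beside 1.51 and 1.53 in parental cells.

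Other features of the cultures moved with the resistant groups, and their part in these results was not tested. Epithelial markers summed to 1133 to 1207 CPM in selpercatinib-resistant and 602 to 1239 CPM in pralsetinib-resistant cells, with 7 of 7 lower in each; Cldn7 was under 1 CPM in both and Epcam in the former. Fibroblast markers summed to 74.0 to 78.5 CPM in parental, 2361 to 2595 CPM in selpercatinib-resistant and 1088 to 1621 CPM in pralsetinib-resistant cells, and 8 of 8 tested were higher in the former and 7 of 8 in the latter, while Lum and Thy1 stayed under 1 CPM in both. Mitochondrially encoded rows took 1.67 to 1.73% of counts in parental, 2.44 to 2.47% in selpercatinib-resistant and 3.13 to 3.16% in pralsetinib-resistant cells. In the acute experiment epithelial markers summed to 10038 to 10803 CPM with selpercatinib, with 6 of 7 higher than in DMSO. Fibroblast markers summed to 44.4 to 48.0 CPM in DMSO and 52.6 to 60.5 CPM with selpercatinib, with 2 of 4 tested higher and 1 lower. Mitochondrially encoded rows took 1.56 to 2.12% of counts in DMSO and 1.97 to 2.33% with selpercatinib, and the part of these in the acute result was not tested.

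Gene by gene, acute and resistant changes were loosely related. Across the 75 genes, Pearson's r between the acute log2 change and that in selpercatinib-resistant cells was 0.40 (Spearman's rho 0.41), and with pralsetinib-resistant cells it was 0.42 (0.39). These comparisons share no library, but genes are not independent replicates and share length and base composition between the tables. The level per length was barely related to the acute change (r 0.13, rho 0.02), and exon length likewise (r −0.03, rho −0.14).

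**Figure D4:**
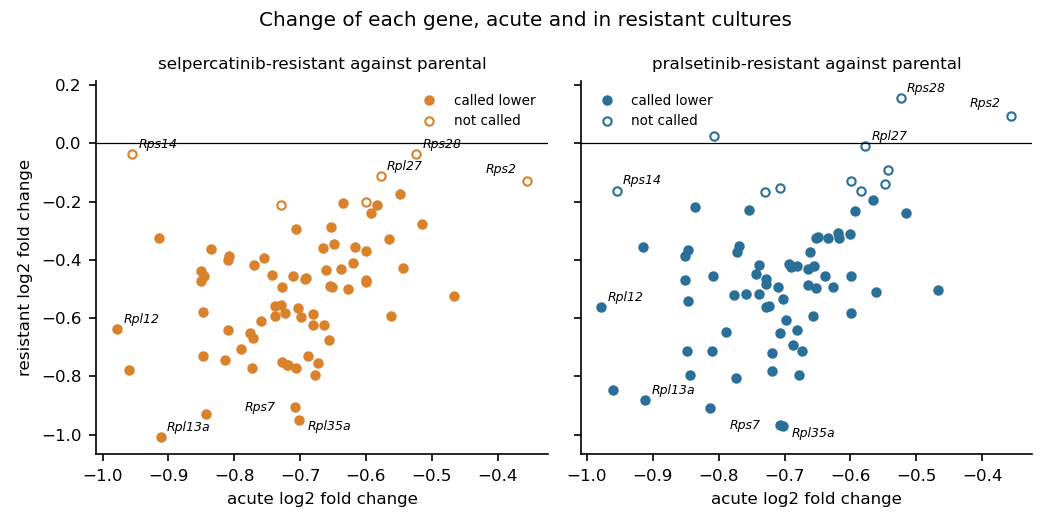
Log2 fold change of each gene in resistant cells against its acute log2 fold change, for selpercatinib resistance (left) and pralsetinib resistance (right), with filled points called lower and open points not called. Rps14 lies at −0.96 on the horizontal axis and at −0.04 (left) and −0.16 (right) on the vertical, and Rps2 is at the upper right in both panels.

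Rack1 and Fau, which belong to the same ribosome but do not match the symbol rule, fell in all 3 comparisons. Rack1, a scaffold on the small subunit, fell by 0.82 ± 0.18 after acute selpercatinib, by 0.61 ± 0.06 in selpercatinib-resistant and by 0.72 ± 0.06 in pralsetinib-resistant cells. Fau, which yields Rps30 from a fusion with a ubiquitin-like protein, fell by 0.47 ± 0.12, 0.82 ± 0.08 and 0.71 ± 0.08, and its acute call was lost without day 3.

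Paralogues of ribosomal proteins moved in mixed directions. Of 6 tested, 3 were lower and 1 higher after acute selpercatinib, and 2 were higher and 2 lower in each resistant group. Rps27l, a paralogue of Rps27 and a p53 target in human cells, rose from 34.9 and 41.5 CPM in parental to 52.0 and 56.2 CPM in selpercatinib-resistant and 63.3 and 67.8 CPM in pralsetinib-resistant cells (log2 changes 0.50 ± 0.10 and 0.78 ± 0.10), where Rps27 itself fell by 0.49 ± 0.08 and 0.50 ± 0.08. Rpl22l1, the paralogue of Rpl22, fell with it, by 0.80 ± 0.21 in the acute comparison and by 0.48 ± 0.13 and 0.51 ± 0.13 in the resistant groups, although each of these calls was lost without 1 or more of the libraries. Rps4l rose by 0.78 ± 0.18 in the acute comparison. Reads of such near-identical genes may be split by the counting.

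Other genes known for a 5′ TOP tract, which encode elongation and initiation factors, the poly(A)-binding protein and hosts of small nucleolar RNAs, were mostly lower as well. Of 25 tested, 19 were lower and 0 higher after acute selpercatinib (median −0.68), 23 lower and 0 higher in selpercatinib-resistant cells (median −0.62), and 23 lower and 1 higher in pralsetinib-resistant cells (median −0.61). Gas5, a host of small nucleolar RNAs whose transcript is degraded when it is translated, had the values 132, 142, 369 and 470 CPM in DMSO and 92.4, 96.7, 88.6 and 95.6 CPM with selpercatinib, and fell by 1.77 ± 0.09 and 1.64 ± 0.09 in the resistant groups. Snhg1, another such host, fell by 2.34 ± 0.11 and 2.00 ± 0.11 there. Npm1, a nucleolar chaperone, fell by 1.11 ± 0.11, 0.77 ± 0.06 and 0.68 ± 0.06, and the initiation factor Eif4b by 1.19 ± 0.06 and 1.35 ± 0.06 in the resistant groups.

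Genes of ribosome assembly were lower in part in the acute comparison. Of 32 nucleolar biogenesis genes, 24 were lower and 0 higher (median −0.58), among them Dkc1, the pseudouridine synthase of ribosomal RNA (−1.17 ± 0.08), Fbl, its methyltransferase (−0.95 ± 0.08), and Rrp1b (−1.25 ± 0.08). Of 28 assembly factors and ribosomal protein chaperones, 16 were lower and 0 higher (median −0.32), including Nob1, the nuclease that trims the small-subunit RNA (−0.83 ± 0.11), and Ipo7, an import receptor (−1.17 ± 0.17). Translation factors without a known TOP tract were lower in 8 of 18 (median −0.20). In resistant cells the nucleolar genes were lower in 26 of 32 (median −0.43) for selpercatinib, and lower in 20 and higher in 5 of 32 (median −0.33) for pralsetinib. The assembly factors and chaperones were lower in 19 and higher in 2 of 28 (median −0.47) for selpercatinib. For pralsetinib they were lower in 15 and higher in 4 (median −0.33). The translation factors without a known TOP tract were lower in 11 and higher in 3 of 18 in each resistant group (medians −0.40 and −0.31).

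In the DMSO arm the lists had different counts. Beside the 60 of 75 ribosomal protein genes that rose with day, 0 of 32 nucleolar biogenesis genes rose and 7 fell (median −0.14 per day), and 0 of 18 other translation factors rose and 10 fell (median −0.13). Of the other TOP genes 11 of 25 rose and 2 fell (median 0.13), with Tpt1 at 0.35 ± 0.04 per day and Eef1b2 at 0.26 ± 0.03, and Hnrnpa1 at −0.28 ± 0.03. The difference between these lists was not tested.

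The regulators were split. Of 24 regulators of TOP mRNAs and ribosome synthesis, 12 were lower and 5 higher after acute selpercatinib. Myc fell from 390, 455, 511 and 526 CPM in DMSO to 277, 298, 235 and 213 CPM (log2 change −0.88 ± 0.15, edgeR adjusted p 0.003), and stood at 633 and 670 CPM in parental, 153 and 156 CPM in selpercatinib-resistant and 148 and 139 CPM in pralsetinib-resistant cells (−2.08 ± 0.06 and −2.18 ± 0.07). Its relative Mycn rose in all 3 comparisons, by 3.82 ± 0.24, 3.10 ± 0.26 and 3.21 ± 0.26 on the log2 scale, from under 1 CPM to between 5.3 and 11.6 CPM, which left it far below Myc in CPM. Larp1, the TOP-binding protein, fell by 0.60 ± 0.07, 0.37 ± 0.07 and 0.34 ± 0.07. Eif4ebp1, the translational repressor that mTORC1 phosphorylates, fell by 1.06 ± 0.07 and 1.29 ± 0.07 in the resistant groups.

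Ribosomal proteins of the mitochondrion, which are encoded in the nucleus and serve the organelle's own translation, had medians nearer 0. Of 77 tested, 21 were lower and 9 higher after acute selpercatinib (median −0.10), 17 lower and 25 higher in selpercatinib-resistant cells (median 0.05) and 10 lower and 38 higher in pralsetinib-resistant cells (median 0.20). Mrpl18 rose from 13.3 and 15.4 CPM in parental to 31.8 and 32.2 CPM in selpercatinib-resistant and 39.4 and 37.2 CPM in pralsetinib-resistant cells (log2 changes 1.15 ± 0.09 and 1.41 ± 0.09), and Mrps21 rose by 1.00 ± 0.08 and 1.05 ± 0.08. Mrps5 fell in all 3 comparisons, by 0.47 ± 0.07, 0.61 ± 0.06 and 0.53 ± 0.06.

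**Figure D5:**
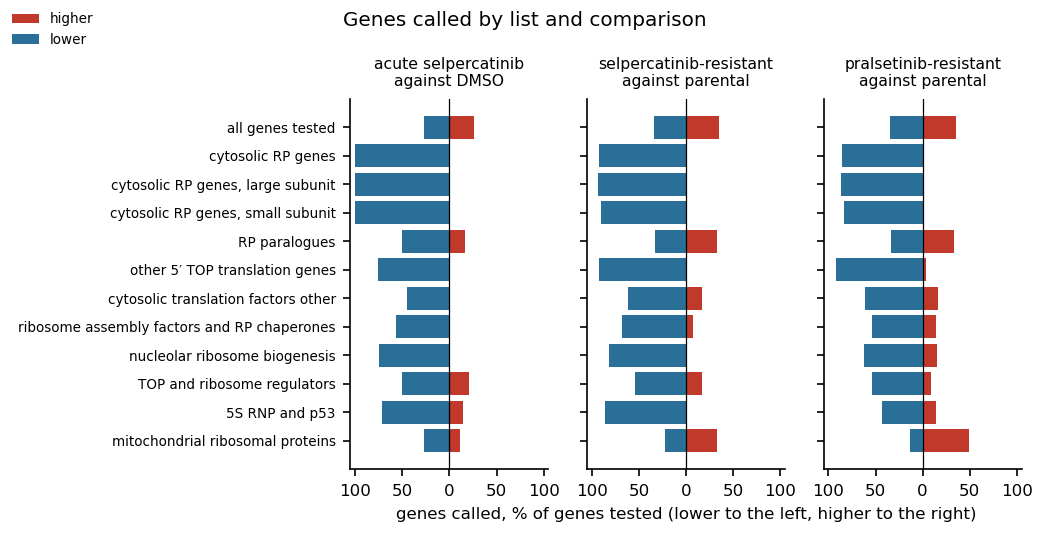
Share of the tested genes of each list that edgeR called lower (blue, to the left) or higher (red, to the right), in percent, for the acute comparison and both resistant groups. The 75 genes are lower in 75, 69 and 64 cases, the other TOP genes in 19, 23 and 23 of 25, and the mitochondrial ribosomal proteins in 21, 17 and 10 of 77, beside 26.9, 34.4 and 34.6% of all genes tested.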

How the data were processed

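Strand-specific poly(A) libraries, 14 in all, were sequenced, per the labels' protocols. FastQC, STAR and edgeR were used with the mm10 build, per the submitters' processing notes; for the counting tool and multi-mapped reads, the setting is not given in the sources used here. The deposited tables are named CPM but hold whole numbers summing to 60723746 to 89827989 per library, and were read as unnormalized counts. The 24 rows named by date-like numbers (0.1635 to 0.2146% of counts) stayed in the totals.

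Counts were scaled by TMM and tested with edgeR 4.0.16 in R 4.3.3 (alternatives: DESeq2 1.42.0, limma 3.58.1 on log2(CPM + 1), other scalings, no filter, libraries left out). Tested genes reached 1 CPM in 4 or more acute or 2 or more resistance libraries; two-sided p were adjusted by Benjamini-Hochberg over all of them, threshold 0.05. Standard errors, the absolute log2 change over the square root of F, are approximate, and 95% intervals are 1.96 of them on each side. CPM is TMM-scaled except for the membership rule, the copies and Rps3a1. The acute fit had day as a block, which the labels mark as a batch shared by the arms. Same-day libraries of the 2 arms deviated together (correlations 0.43 to 0.64). So did libraries of days 1 and 2 (0.58 and 0.50) and of days 3 and 5 (0.55 and 0.44). Pairs of day 1 or 2 with day 3 or 5 gave −0.36 to −0.64, so the same-day values do not set the day apart from early against late. The slope fit added treatment by day, trends were fitted within arms, and the 3 resistance groups shared 1 fit. The tests were tested on simulated counts.

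The members and gene lists were chosen with earlier results of these data known. Named in each comparison were the 5 largest rises and falls among called members with no overlap or the same direction in each day pair, 16 fixed members, paralogues and associated genes, and up to 4 genes of each list by lowest p. Rps2, Rps28, Rpl27, Rpl38, Rpl39 and other genes outside that rule were named after their values were seen. Start windows are RefSeq's. Some genes that this rule names are not reported here.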

Additional observations from a re-analysis of the deposited data

Results flagged for a closer look

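Rpl35a had a sample apart from the others in the acute selpercatinib group. Its levels were 169.8, 174.2 and 169.6 CPM on days 1, 2 and 3 and 200.9 CPM on day 5, and the gap above the next library was 0.854 of the group's range, beyond the critical value of Dixon's test for 4 samples. This was 1 of 227 groups tested, where chance flags about 1 in 20.

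The acute log2 difference changed with day in 3 genes by the test of that change itself. The slopes were −0.2802 per day for Rpl12, −0.3007 for Rps14 and −0.2551 for Rps27. Day is also the labelled batch, so time and batch cannot be told apart.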

How the results depend on the processing

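Over all alternatives the members called lower numbered 67 to 75 in the acute comparison, 60 to 72 in selpercatinib-resistant and 52 to 68 in pralsetinib-resistant cells. Among all genes tested, the acute fits called 2480 to 4212 lower. With no library left out, the resistant fits called 3907 to 5596 lower for selpercatinib and 3799 to 5692 for pralsetinib. The acute and slope fits without the replicate block gave 73 and 3, against 2497 and 104 of all genes. The replicate block gave 71 in selpercatinib-resistant cells, against 5437 of all genes. Resistance replicate numbers share only a number (correlation −0.049) and do not pair the libraries. The genes growing lower by day numbered 10 with column totals, 42 without the filter, 41 with DESeq2, 5 and 7 with limma (pseudocount 1 and 0.5) and 0 to 61 with 1 day left out. The same fits called 221, 724, 558, 160 and 175, and 15 to 932, of all genes lower. The DMSO trend gave 0 to 66 higher and 0 to 2 lower with a day left out, and 1 lower with column totals. Of all genes, 16 to 3023 were called higher and 86 to 2922 lower with a day left out, and 1843 lower with column totals. The selpercatinib trend gave 4 lower without the filter, 5 with DESeq2, and 0 to 11 lower and 0 to 1 higher with a day left out. Of all genes, these fits called 1922 lower, 1618 lower, and 0 to 2221 lower and 0 to 1808 higher. Higher in pralsetinib-resistant cells were 3 with column totals, 1 without the filter, 1 with DESeq2 and 0 to 2 with a library left out. Between the resistant groups 0 to 9 were lower and 0 to 2 higher with a library left out. Of all genes, 6431, 6608 and 5121 were called higher in pralsetinib-resistant cells with column totals, without the filter and with DESeq2. The share of counts was 4.86% and 5.16% in selpercatinib- and pralsetinib-resistant cells without mitochondrially encoded rows, and 4.90% and 5.17% with -ps rows. The cause of these shifts was not tested.

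The values of genes named in the text that changed sign were all of uncalled genes. Over all 75 genes, column totals moved the number with a negative value from 75 to 71 in selpercatinib-resistant and from 72 to 64 in pralsetinib-resistant cells, from 45 to 41 in the selpercatinib trend and from 53 to 61 between resistant groups. With column totals the named genes were, against parental in selpercatinib-resistant cells, Rpl27 0.032, Rps14 0.11, Rps2 0.014 and Rps28 0.11; in pralsetinib-resistant cells, Rpl27 0.16, Rpl38 0.041, Rpl39 0.0059, Rpl41 0.081, Rps14 0.0086, Rpl19 0.0082, Rpl21 0.032 and Rps21 0.018; in the selpercatinib trend, Rps3 0.0037; and between resistant groups, Rps3 −0.0080. Without the filter they were −0.0059 per day (Rps6, selpercatinib trend per day) and Rpl27 0.012 in pralsetinib-resistant cells. Named genes also changed sign with a day or library left out, over these ranges. By day, Rpl41 ran from −0.018 to 0.043 (slope), Rplp0 from −0.0015 to 0.108 and Rpl11 from −0.037 to 0.023 (DMSO trend), and Rps3 from −0.016 to 0.011, Rps6 from −0.069 to 0.019, Rpl22 from −0.032 to 0.066, Rpl5 from −0.011 to 0.039 and Rps27a from −0.041 to 0.029 (selpercatinib trend). By library, Rps14 ran from −0.133 to 0.029 and Rps28 from −0.120 to 0.013, with 2.1e-05 between, in selpercatinib-resistant cells, and Rpl27 from −0.073 to 0.028, with 0.025 between, and Rps10 from −0.094 to 0.145, in pralsetinib-resistant cells. Between the resistant groups Rps3 ran from −0.0081 to 0.042, Rpl10 from −0.164 to 0.00083, Rplp0 from −0.051 to 0.0069, with 0.0022 between, Rps19 from −0.065 to 0.015, Rpl19 from −0.097 to 0.0021, Rpl21 from −0.097 to 0.027, Rpl11 from −0.049 to 0.0062 and Rps4x from −0.094 to 0.028. Among values of named genes, 3461 kept direction and side of the threshold, 167 lost a call, 89 gained one and 40 changed sign. Groups of 2 libraries, and 1 library per arm and day, limit the precision.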
